A study of Mus musculus with 12 samples.

Results

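Mouse genes named Zfp with a number below 500 were followed through 2 stages of male meiosis. The deposited table lists 168 of them among its 23235 genes. The 149 that had a value of at least 1 in 3 or more of the 12 libraries are described here, and 19 were left out by that level rule. At the edge of the rule, Zfp109, Zfp2, Zfp300, Zfp341, Zfp358 and Zfp442 reached 1 in exactly 3 libraries, and their highest values ran from 1.09 to 2.8. Zfp112 reached it in 2 libraries, with a highest value of 1.84. Zfp131 is listed at 0 in all 12 libraries.

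Spermatocytes of C57BL/6 mice were sorted by fluorescence into leptotene/zygotene cells (LZ below) and pachytene cells, and their RNA was sequenced. Each stage was taken from animals labelled Rnaseh1 knock-out (called KO-labelled here) and wild type (WT). This gave 4 groups of 3 libraries: KO-labelled pachytene, WT pachytene, KO-labelled LZ and WT LZ. RNase H1 is a nuclease that cuts the RNA of RNA:DNA hybrids. The labels give neither the age of the mice, nor the part of Rnaseh1 that was deleted, nor whether each replicate is a different animal. All p-values thus measure the spread between these libraries alone.

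Zinc finger proteins of the Cys2-His2 (C2H2) kind fold short repeats around a zinc ion, and arrays of such fingers read DNA sequence. Many of the mouse genes arose by tandem duplication and carry a KRAB domain, through which the protein recruits Trim28 (KAP1) and, with it, the histone methyltransferase Setdb1 and heterochromatin proteins. The best known targets of KRAB zinc finger proteins are transposable elements and imprinted loci. The name Zfp is older than this classification and also covers RNA-binding, spindle, ubiquitin ligase and cytoskeletal proteins.

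All values are the authors' FPKM per gene, which they scaled with added ERCC control RNA (spike-in). FPKM divides the fragments of a gene by the length of its transcript and the size of the library, so levels can be compared between genes. The depth of the libraries is unknown. Log2 changes are differences of log2(FPKM + 1), which understates the change of low genes, and carry the standard error (SE) of limma. A gene was called at a Benjamini-Hochberg adjusted p under 0.05 over all 15400 genes that passed the same level rule. On the spike-in scale most genes were higher at pachytene. Over all genes tested the median log2 change was 2.29 in KO-labelled and 1.64 in WT cells between the stages. Between the genotypes it was 0.37 at pachytene and -0.43 at LZ. Counts are therefore also given after median-ratio scaling, which divides each library by its median ratio to the mean library and sets the median gene near 0.

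The marker lists place the libraries as follows. All 13 listed pachytene genes were called higher at pachytene in both genotypes, against 76.8% of all genes in KO-labelled and 80.9% in WT cells. Of the 12 measured leptotene and zygotene genes 6 were called higher and 3 lower at pachytene in each genotype, with a median log2 change of 0.73 in KO-labelled and 0.75 in WT cells. Median-ratio scaling gave 9 lower and 2 higher calls in KO-labelled cells, and 6 and 2 in WT. With it 12 of the 13 pachytene genes were called higher in KO-labelled and 9 in WT cells. Transcripts of round spermatids, the haploid cells that follow meiosis, were found in every group, and none of the 10 listed genes was at 0 in all 3 libraries of any group. Their summed level was 3135 to 10289.6 in KO-labelled pachytene libraries, 38276 to 45982 in WT pachytene libraries, 819 to 5575 in KO-labelled LZ libraries and 14803 to 31958 in WT LZ libraries. The 7 Leydig cell genes summed to 1242 to 5347 in KO-labelled pachytene, 2292 to 8622 in WT pachytene, 3.38 to 89.1 in KO-labelled LZ and 3.74 to 17.1 in WT LZ libraries, where Lhcgr and Hsd17b3 were listed at 0 in all 3. Sums of the peritubular and endothelial and of the blood and macrophage genes were also lower at LZ. Sertoli cell genes kept sums of up to 722 in KO-labelled LZ and 603 in WT LZ libraries, against up to 579.8 and 1102 at pachytene. After median-ratio scaling all 8 tested Sertoli genes were called lower at pachytene in KO-labelled cells and 1 in WT. The shares of all genes called lower were 29.3% and 17.8%. The part of these other transcripts in the results below was not tested. Fewer cells of a type and less RNA per cell cannot be told apart in such samples.

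Rnaseh1 itself was not called lower under its knock-out label. It had 77.3, 68.9 and 94.3 FPKM in KO-labelled pachytene libraries, against 52.7, 51.7 and 56.8 FPKM in WT pachytene libraries (log2 change 0.56, SE 0.23, adjusted p = 0.0638 by limma). At LZ it had 11.0, 18.3 and 14.8 FPKM in KO-labelled and 16.1, 20.5 and 16.8 FPKM in WT libraries (log2 change -0.28, SE 0.23, adjusted p = 0.407). Which part of the gene these values cover is not known, so they do not check the labels. Directions between the genotypes below rest on the labels.

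As a set, the Zfp genes were well above their LZ level at pachytene. The median of their group means was 20.0 FPKM in KO-labelled pachytene, 13.4 in WT pachytene, 2.13 in KO-labelled LZ and 2.98 in WT LZ cells. The corresponding medians over all genes tested were 27.9, 26.0, 4.76 and 7.1 FPKM. At pachytene 21 of the 149 genes had a mean over 100 FPKM in KO-labelled and 13 in WT cells. No gene of the 149 had such a mean in either LZ group. Means under 1 FPKM were found for 4 genes in each pachytene group, for 43 in KO-labelled LZ and for 28 in WT LZ cells.

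**Figure D1:**
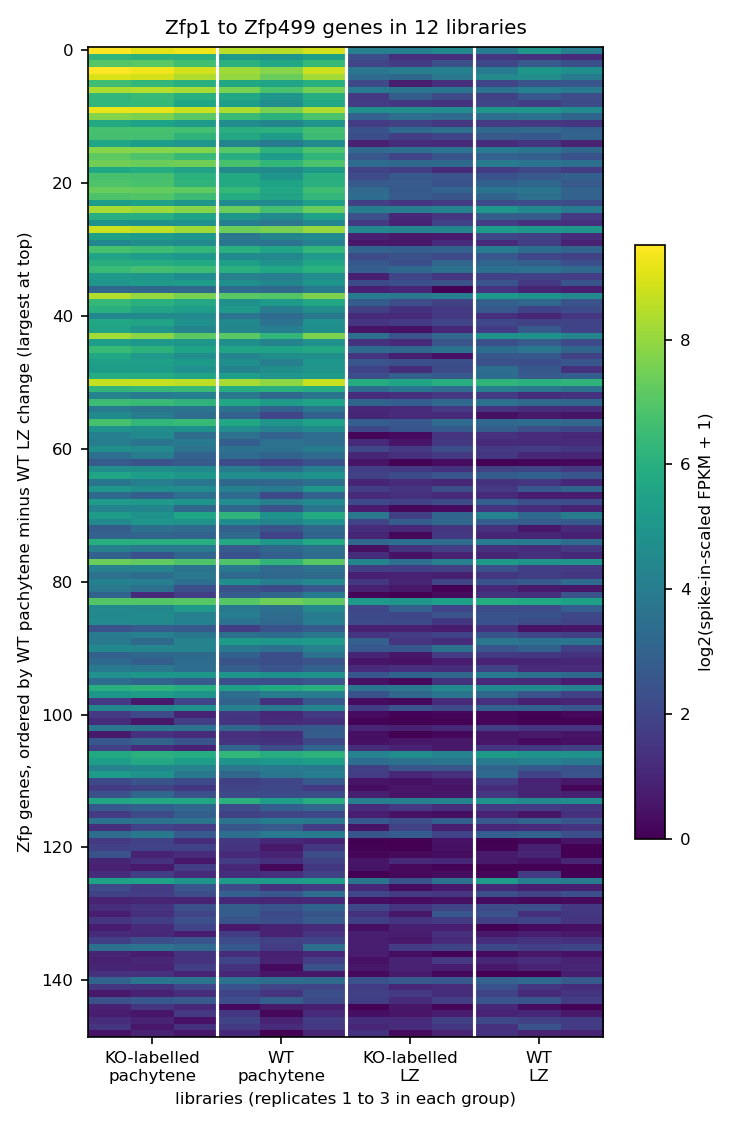
Levels of the 149 genes in the 12 libraries, as log2(spike-in-scaled FPKM + 1) by colour. Rows are genes ordered by their WT change between the stages, and columns are the 3 libraries of each group. The 6 pachytene columns on the left are brighter than the 6 LZ columns for most rows, and the lowest rows include Zfp40, Zfp192 and Zfp64, with WT changes of -0.36, -0.35 and -0.33.

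Summed over the 149 genes, the level was 9659, 8952 and 7445 FPKM in KO-labelled pachytene libraries and 5449, 4271 and 6622 FPKM in WT pachytene libraries. It was 647, 605 and 731 FPKM in KO-labelled LZ libraries, against 1051, 978 and 821 FPKM in WT LZ libraries. No pair of compared groups overlapped in this sum. The ratio was 13.1 for pachytene over LZ in KO-labelled cells, 5.73 for pachytene over LZ in WT, 1.59 for KO-labelled over WT at pachytene and 0.696 for KO-labelled over WT at LZ. The exact two-sided permutation test gave p = 0.1 for each, its minimum for groups of 3 libraries. The same ratios over all genes tested were 12.2, 5.03, 1.5 and 0.615. As a share of the summed level of all genes tested, the Zfp genes held 0.152 ± 0.00608% in KO-labelled pachytene, 0.143 ± 0.0326% in WT pachytene, 0.141 ± 0.0121% in KO-labelled LZ and 0.125 ± 0.00841% in WT LZ cells (SD, n = 3 each). Exact permutation p-values for these shares ran from 0.2 to 1.0 over the 4 comparisons. After median-ratio scaling the ratios of sums were 1.65 for pachytene over LZ in KO-labelled cells, 1.37 for pachytene over LZ in WT and 1.26 for KO-labelled over WT at pachytene (exact permutation p = 0.1 each). The ratio at LZ turned to 1.05 (exact permutation p = 0.4).

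Between LZ and pachytene in WT, 133 of the 149 Zfp genes (89.3%) were called higher at pachytene and 0 were called lower. Over all genes tested the shares were 80.9% higher and 0.487% lower. In both stage comparisons a gene can pass the level rule through its pachytene libraries alone, and is then likely to be called higher. The Zfp genes had lower LZ levels than all genes tested (medians of 2.98 and 7.1 FPKM in WT), so the rule may bear on them more. How many genes passed only through pachytene was not counted, so no difference from all genes is drawn from these shares. The median log2 change was 1.77 for the Zfp genes and 1.64 for all genes, and 78 of the 149 lay above the median of all genes. In 130 of the 133 called genes all 3 pachytene libraries lay above all 3 LZ libraries. This separation was counted among called genes only, where it is likely, and not over all genes. Log2 changes of the 133 ran from 0.60 to 4.34. After median-ratio scaling 36 were called higher and 21 lower, against 20.4% and 17.8% of all genes. All 36 were among the 133. The 16 genes not called on the spike-in scale had both small and negative changes, down to -0.36 in Zfp40 (adjusted p = 0.341).

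Zfp389 had the highest level of all 149 genes in both pachytene groups. It is annotated as a transcribed pseudogene, with no coding transcript, on chromosome 13. Its values were 732, 561 and 625 FPKM in KO-labelled pachytene and 370.3, 359 and 483 FPKM in WT pachytene libraries. At LZ they were 16.1, 16.2 and 20.5 FPKM in KO-labelled and 13.8, 29.8 and 16 FPKM in WT libraries. In WT it rose by 4.34 on the log2 scale (SE 0.26; limma, adjusted p = 3.97e-08), the largest change of the set and 2.70 above the median gene. After median-ratio scaling it was 2.33 (adjusted p = 7.72e-05).

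Zfp35, on chromosome 18, encodes a protein with 17 C2H2 matches and has been described in mouse spermatocytes. It had 715, 641 and 461 FPKM in KO-labelled pachytene, 283, 218 and 438 FPKM in WT pachytene, 12.3, 15 and 17.3 FPKM in KO-labelled LZ and 14.3, 31.6 and 26.0 FPKM in WT LZ libraries. Its WT log2 change was 3.66 (SE 0.31, adjusted p = 2.32e-07). Zfp54 (3.71, SE 0.27), Zfp167 (3.86, SE 0.29), which is now called Zkscan7, and Zfp110 (3.46, SE 0.28) complete the 5 largest WT rises. Of these 5, Zfp167 had the lowest values in the WT LZ libraries. It had 76.7, 67.9 and 65.1 FPKM in KO-labelled pachytene and 33.9, 31.2 and 42.3 FPKM in WT pachytene libraries, against 3.9, 1.43 and 1.48 FPKM in KO-labelled LZ and 1.86, 1.55 and 1.19 FPKM in WT LZ libraries. All 5 stayed called higher after median-ratio scaling, with log2 changes of 1.45 to 2.33.

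The smallest rises among the genes that the naming rule picked were those of Zfp266 (0.76, SE 0.33), Zfp185 (0.80, SE 0.29), Zfp467 (1.03, SE 0.34), Zfp68 (1.05, SE 0.25) and Zfp84 (1.08, SE 0.29). Each lay below the median gene, by 0.56 to 0.88 on the log2 scale. Zfp68 shows their pattern, with 11.2, 14.8 and 13.2 FPKM in WT pachytene libraries and 5.38, 7.18 and 4.91 FPKM in WT LZ libraries. The pachytene values were higher without overlap, but by less than the typical gene. After median-ratio scaling all 5 changes were negative, and Zfp266 (-0.88, adjusted p = 0.0257), Zfp185 (-0.90, adjusted p = 0.0301) and Zfp68 (-0.78, adjusted p = 0.0188) were called lower.

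**Figure D2:**
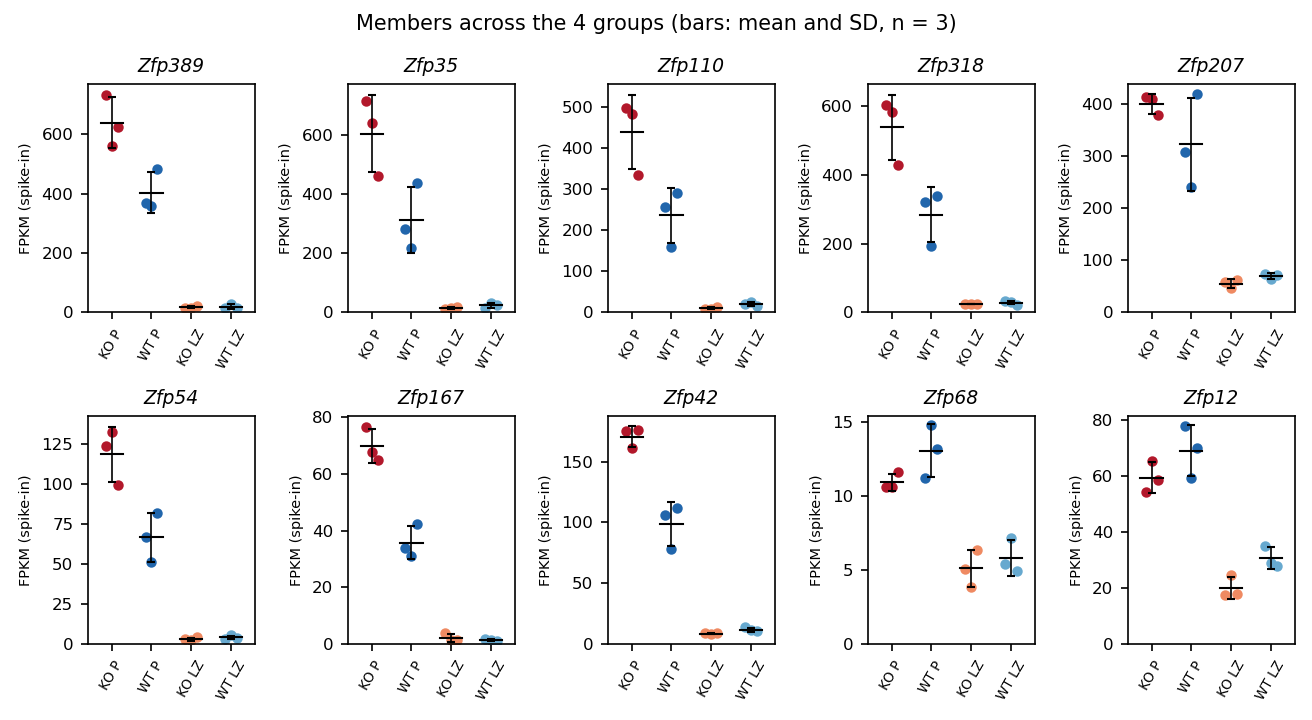
Spike-in-scaled FPKM of 10 genes in the 4 groups, with KO P and KO LZ the KO-labelled and WT P and WT LZ the wild-type pachytene and LZ libraries. Points are single libraries, and bars give the mean and SD of 3. In 7 panels the LZ groups lie close to 0 beside the pachytene groups. Zfp207 keeps a higher LZ level, and Zfp68 and Zfp12 have pachytene means of 13.1 and 69.2 in WT, against LZ means of 5.82 and 30.6.

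In KO-labelled cells 131 of the 149 genes (87.9%) were called higher at pachytene and 0 lower, against 76.8% and 2.83% of all genes. Their median log2 change was 2.49, and that of all genes was 2.29. The groups did not overlap in 129 of the 131, again counted among called genes only, and log2 changes ran from 0.61 to 5.31. After median-ratio scaling 51 were called higher and 31 lower (31.7% and 29.3% of all genes). The stage comparisons of the genotypes use separate libraries, but come from the same fit with a shared estimate of the spread. Of the 149 genes 124 were called higher in both genotypes, out of 131 in KO-labelled and 133 in WT cells. With so many called in each genotype, a large overlap follows from these counts alone. Zfp161, Zfp192, Zfp219, Zfp275, Zfp362, Zfp40, Zfp64, Zfp7 and Zfp74 were called in neither.

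The 5 largest changes in KO-labelled cells belonged to Zfp110 (5.31, SE 0.28), Zfp35 (5.24, SE 0.31), Zfp389 (5.10, SE 0.26), Zfp286 (4.92, SE 0.32) and Zfp54 (4.89, SE 0.27). Zfp110 encodes a KRAB zinc finger protein also known as NRIF, which binds the p75 neurotrophin receptor. It had 497, 484 and 335 FPKM in KO-labelled pachytene and 9.1, 8.4 and 12.7 FPKM in KO-labelled LZ libraries. In WT it had 257, 160.0 and 291 FPKM at pachytene and 21.4, 25.1 and 14.6 FPKM at LZ. The KO-labelled range was thus wider at both ends, with the highest pachytene and the lowest LZ values. Zfp286 had 95.9, 78.9 and 65 FPKM in KO-labelled pachytene and 3.34, 0.752 and 1.43 FPKM in KO-labelled LZ libraries, and the ratio of the 2 means was 43.5. The smallest rises by the rule were those of Zfp9 (0.94, SE 0.26), Zfp68 (0.98, SE 0.25), Zfp488 (1.44, SE 0.34), Zfp414 (1.53, SE 0.23) and Zfp12 (1.54, SE 0.21). All 5 were called lower after median-ratio scaling, with log2 changes of -1.65 to -1.29. Of the transcript words of Zfp414 and Zfp488, 26.3% and 15% occur in other genes, so reads of these could be split.

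The lists of roles that follow were drawn up with earlier results of these data known. Of the 6 measured genes described in testis (Zfp35, Zfp37, Zfp39, Zfp59, Zfp105 and Zfp318), all 6 were called higher at pachytene in each genotype. Over all genes tested 76.8% were called higher in KO-labelled and 80.9% in WT cells. The 6 had a median log2 change of 4.46 in KO-labelled and 2.84 in WT cells. After median-ratio scaling 5 were called in KO-labelled and 3 in WT cells, all higher, against 31.7% and 20.4% of all genes called higher. Zfp318, a nuclear protein found in testis that binds the androgen receptor, had 601, 581 and 429 FPKM in KO-labelled pachytene and 321, 192 and 337 FPKM in WT pachytene libraries. Its LZ values were 25.5, 24.8 and 23.2 FPKM in KO-labelled and 32.1, 31.3 and 22.8 FPKM in WT libraries. Zfp105, a testis-enriched transcription factor, rose by 4.08 (SE 0.27) in KO-labelled and 2.44 (SE 0.27) in WT cells on the log2 scale.

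Transcripts of genes of pluripotency and the early embryo were found in these libraries too, and which cells they came from was not tested. Zfp42 is Rex1, a marker of naive embryonic stem cells. It had 175, 161 and 176 FPKM in KO-labelled pachytene, 106, 78.2 and 112 FPKM in WT pachytene, 8.93, 8.03 and 8.63 FPKM in KO-labelled LZ and 13.7, 11.4 and 10.3 FPKM in WT LZ libraries. The WT log2 change was 2.96 (SE 0.21, adjusted p = 6.58e-08), or 0.97 after median-ratio scaling (adjusted p = 0.00083). Of the annotated transcript words of Zfp42, 8.52% occur elsewhere, chiefly in the pseudogene Zfp42-ps1, so that some reads could belong to that copy. Zfp281, a regulator of embryonic stem cell genes, rose by 1.77 (SE 0.26) in WT, close to the median gene. Zfp296, another stem cell factor, rose by 1.11 (SE 0.42) with overlapping libraries, at 7.77, 12.3 and 15.8 FPKM in WT pachytene and 8.65, 2.74 and 4.41 FPKM in WT LZ. The list's remaining gene, Zfp462, was left out by the level rule, with a highest value of 0.969 FPKM.

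Zfp57 and Zfp445 maintain DNA methylation at imprinted regions. Zfp445 had 63.0, 58.9 and 55 FPKM in KO-labelled pachytene and 40.1, 28.9 and 48.3 FPKM in WT pachytene libraries, against 5.15, 3.87 and 7.73 FPKM in KO-labelled LZ and 7.51, 6.36 and 4.06 FPKM in WT LZ libraries. It rose at pachytene in WT by 2.53 (SE 0.29, adjusted p = 2.66e-06). Zfp57 rose by 1.62 (SE 0.34, adjusted p = 0.000565), with a WT pachytene mean of 21.2 ± 4.95 and a WT LZ mean of 6.32 ± 2.38 FPKM (SD, n = 3 each). After median-ratio scaling Zfp445 was still called higher in WT (0.62, adjusted p = 0.028) and Zfp57 had -0.26 (adjusted p = 0.623).

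All 4 genes of the RNA-binding and spindle list and both ligase genes were called higher at pachytene in each genotype. So were 76.8% of all genes tested in KO-labelled and 80.9% in WT cells. Zfp207, also called BuGZ, loads the checkpoint protein Bub3 at kinetochores. At pachytene it had 412, 408 and 378 FPKM in KO-labelled and 308, 241 and 418 FPKM in WT libraries. It was the highest of the 149 genes in both LZ groups, at 57.7, 46.0 and 62.3 FPKM in KO-labelled and 73.9, 64.1 and 72.0 FPKM in WT libraries. Its WT log2 change was 2.15 (SE 0.22), or 0.11 after median-ratio scaling (adjusted p = 0.639). Zfp326, a protein of messenger ribonucleoprotein particles, behaved likewise with 2.14 (SE 0.22) and 0.16. Zfp36, or tristetraprolin, which promotes decay of AU-rich messenger RNAs, had 1.32 (SE 0.37) and -0.47. Zfp91, a ubiquitin ligase, had 2.64 (SE 0.28) and 0.64, called higher on both scales. Zfp451, a SUMO ligase, had 1.74 (SE 0.28) and -0.28.

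Among 10 broadly expressed promoter and chromatin factors, 9 were called higher at pachytene in each genotype. The shares of all genes were 76.8% in KO-labelled and 80.9% in WT cells. Zfp410, a direct activator of Chd4, had 63.2, 71.8 and 59.7 FPKM in KO-labelled pachytene, 40.7, 53.6 and 64.8 FPKM in WT pachytene, 11.4, 12.9 and 21.1 FPKM in KO-labelled LZ and 21, 22.8 and 17.5 FPKM in WT LZ libraries. Its WT rise of 1.32 (SE 0.26) lay below that of the median gene, and it was called lower after median-ratio scaling (-0.67, adjusted p = 0.0194). Zfp217, part of corepressor complexes, rose by 2.13 (SE 0.22) in WT. Zfp219 was the member of this list called in neither genotype, with a WT log2 change of 0.40 (adjusted p = 0.269). The differentiation regulators Zfp423 and Zfp467 were both called higher in each genotype, and their WT log2 changes were 2.21 (SE 0.34) and 1.03 (SE 0.34).

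Of 13 listed partners of KRAB zinc finger proteins 12 were called higher at pachytene in each genotype, against 76.8% of all genes in KO-labelled and 80.9% in WT cells. Median-ratio scaling left 4 partners called higher and 2 lower in KO-labelled cells, and 2 and 1 in WT. The partners' median log2 changes on that scale, 0.08 in KO-labelled and -0.12 in WT cells, were near 0, the level of the median gene. Trim28, the corepressor that the KRAB domain binds, had 1322, 1242 and 917 FPKM in KO-labelled pachytene, 626, 491 and 687 FPKM in WT pachytene, 82.9, 95.5 and 97.9 FPKM in KO-labelled LZ and 149, 113 and 81.7 FPKM in WT LZ libraries. Its WT log2 change was 2.41 (SE 0.24, adjusted p = 7.28e-07). Smarcad1, a chromatin remodeller, was the exception, with a log2 change of -0.36 (adjusted p = 0.263) in KO-labelled and 0.01 (adjusted p = 0.975) in WT cells. Between the genotypes at pachytene 6 of the 13 partners were called higher (Trim28, Setdb1, Atf7ip, Cbx5, Morc3 and Uhrf1), against 24.6% of all genes. Of these, Trim28 (0.60, adjusted p = 0.0189 by limma) and Uhrf1 (0.55, adjusted p = 0.0341) were called after median-ratio scaling, against 3.57% of all genes. No partner was called at LZ, by limma at an adjusted p under 0.05, where 4 had an unadjusted p under 0.05 and Cbx3 had a log2 change of -0.56 (adjusted p = 0.0599).

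Structure and position of the genes were read from GENCODE M21 and RefSeq annotation. A C2H2 pattern was searched in the longest open reading frame of each gene and found a median of 10 fingers, from 0 to 32 in Zfp142. No match was found in Zfp185, Zfp259, Zfp330, Zfp36, Zfp395, Zfp414 and Zfp474. A KRAB motif was found in 21 genes, and in 44 with a wider form of the motif. WT pachytene levels had a median of 8.49 FPKM for the 21 KRAB genes and 14.5 FPKM for the 128 others. Their median WT log2 changes between the stages were 1.64 and 1.79. Genes with 10 or more fingers (78) had a median of 9.37 FPKM in WT pachytene cells and a median log2 change of 1.82. The 71 with fewer had 23.6 FPKM and 1.74. Levels were thus lower with more fingers or a KRAB motif, as a description without a test.

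Chromosome 7 holds 30 of the 149 genes, and chromosomes 13 and 17 hold 16 each. The median stage change in KO-labelled cells was 3.20 on chromosome 7, 1.76 on chromosome 13 and 2.30 on chromosome 17. In WT these medians were 2.11, 1.40 and 1.48. After median-ratio scaling 10 genes of chromosome 7 were called higher and 2 lower at pachytene in WT. The counts were 5 higher and 1 lower on chromosome 13, and 4 higher and 5 lower on chromosome 17. Over all genes tested 20.4% were called higher and 17.8% lower on that scale, and no test between chromosomes was made. Another zinc finger gene lies within 200 kb of 84 members. Clustered copies can share reads: in 15 members at least 10% of the 50-base words of their transcripts occur in another gene, with 84.3% in Zfp433, 81.3% in Zfp97, 52.4% in Zfp59 and 46.6% in Zfp58. How the authors counted such reads is not given in the sources used here, so the values of these genes are uncertain.

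The 4 X-linked members, Zfp185, Zfp275, Zfp300 and Zfp449, had a median log2 change between the stages of 0.15 in KO-labelled and 0.80 in WT cells, against 2.51 and 1.81 for the 145 autosomal members. The X chromosome is known to be silenced at pachytene, and its part in these values was not tested. All 612 X-linked genes tested had medians of -0.10 in KO-labelled and 0.71 in WT cells. Of the 612, 115 were called higher and 176 lower at pachytene in KO-labelled cells, and 262 and 25 in WT. The shares of all genes tested were 76.8% higher and 2.83% lower in KO-labelled cells, and 80.9% and 0.487% in WT. Between the genotypes at pachytene the 4 genes had a median of -0.54 and all X-linked genes one of -1.14. Of the 612, 363 were called lower, against 14.3% of all genes tested. Zfp185, a LIM domain protein linked to the actin cytoskeleton, was the X-linked member called lower there. Its values were 2.63, 2.33 and 3.76 FPKM in KO-labelled pachytene and 6.62, 4.96 and 10.1 FPKM in WT pachytene libraries (log2 change -1.04, SE 0.29, adjusted p = 0.0196), without overlap. It was also called lower after median-ratio scaling (-1.03, adjusted p = 0.04).

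Promoter sequence was examined for 3 elements in windows of 300 bases around the annotated start, which RefSeq (GRCm38.p6) gives for 123 of the 149 genes. These elements were chosen after the expression data were seen. The element of Zfp143, itself a member and a transcriptional activator, was searched on both strands. It is the stretch in capitals in the sequences that follow, with any base allowed at the position where they differ. This element occurs in 8 of the 123 genes (6.5%), against 2.26% of the 12120 genes tested that have a window. Of these 8, 4 lie among the 61 genes with the larger WT stage changes and 4 among the other 62. The windows are read 5′ to 3′ in the direction of the element.
Zfp1: aggtgtaggACTACAATTCCCataatgcct
Zfp128: gacactgagACTACAATTCCCagaaggcca
Zfp180: ctcaatggaACTACAATTCCCagaactctc
Zfp219: tcacccgagACTACAAATCCCaggatgccc
Zfp358: ctcgagcgaACTACAAGTCCCagcagctcc
Zfp454: gtggccgaaACTACAATTCCCagaaggctc
Zfp58: agtggccagACTACAATTCCCacaagtctg
Zfp93: ggcgttggaACTACAATTCCCagaattcct

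These windows lie, on GRCm38.p6, at chr8:111643408-111643437 (minus strand) for Zfp1, chr7:12881153-12881182 (minus) for Zfp128, chr7:24081865-24081894 (minus) for Zfp180, chr14:52019700-52019729 (plus) for Zfp219, chr8:3493104-3493133 (plus) for Zfp358, chr11:50887657-50887686 (plus) for Zfp454, chr13:67500533-67500562 (plus) for Zfp58 and chr7:24270337-24270366 (minus) for Zfp93. The element runs against the direction of transcription in 7 of the 8, all but Zfp358. In these same genes the stage change was not uniform. Zfp93 had 48.4, 39.7 and 29.8 FPKM in KO-labelled pachytene, 18.5, 14.5 and 23.0 FPKM in WT pachytene, 0.835, 1.35 and 1.19 FPKM in KO-labelled LZ and 1.31, 1.74 and 0.929 FPKM in WT LZ libraries, a WT log2 change of 3.07 (SE 0.27), whereas Zfp219 was called in neither genotype. Of the transcript words of Zfp93, 20.8% occur in other genes. Zfp143 itself rose by 2.21 (SE 0.34) in WT, or 0.36 after median-ratio scaling (adjusted p = 0.412).

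The core of the element bound by MYB proteins, CAACTG, was searched because A-MYB (Mybl1) is the known activator of pachytene genes. It was found in 13.8% of the 123 Zfp windows and 13.7% of the windows of genes tested. Of the 61 genes with the larger WT stage changes 11 had it, and of the other 62 genes 6. The cAMP response element TGACGTCA occurs in 5.69% of the Zfp windows and 3.31% of those tested. The median number of CpG dinucleotides per window was 16 for the Zfp genes and 20 for the genes tested. The windows of Zfp93 and Zfp266 are shown because the first gene rose and the second was among the smallest rises between the stages. Both are read 5′ to 3′ in the direction of transcription, with the matches to the 3 elements in capitals.
Zfp93: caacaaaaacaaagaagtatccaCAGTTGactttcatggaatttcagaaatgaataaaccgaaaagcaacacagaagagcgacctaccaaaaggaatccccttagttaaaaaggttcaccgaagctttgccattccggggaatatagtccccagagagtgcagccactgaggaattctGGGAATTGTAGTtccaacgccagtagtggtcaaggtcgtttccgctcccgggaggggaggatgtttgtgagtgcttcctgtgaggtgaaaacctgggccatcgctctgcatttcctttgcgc
Zfp266: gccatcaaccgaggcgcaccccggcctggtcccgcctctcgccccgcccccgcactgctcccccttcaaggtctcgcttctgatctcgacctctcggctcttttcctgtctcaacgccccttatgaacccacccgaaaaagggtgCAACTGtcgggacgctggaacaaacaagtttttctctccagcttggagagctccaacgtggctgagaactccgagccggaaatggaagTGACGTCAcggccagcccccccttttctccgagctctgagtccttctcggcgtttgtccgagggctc

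The Zfp93 window is chr7:24270168-24270467 on the plus strand and the Zfp266 window chr9:20521370-20521669 on the minus strand of GRCm38.p6. The Zfp93 window holds a MYB match and the Zfp143 element, both on the opposite strand, and 10 CpG. The Zfp266 window holds a MYB match, a cAMP response element and 23 CpG. Such matches describe the letters and were not measured as bound sites.

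At pachytene 36 of the 149 Zfp genes (24.2%) were called higher in KO-labelled than in WT cells and 6 were called lower. Over all genes tested the shares were 24.6% higher and 14.3% lower, so the share of higher calls was near the background. Median log2 changes were 0.47 for the Zfp genes and 0.37 for all genes. The 36 changes ran from 0.72 to 1.32. In 33 of the 36 the groups did not overlap, which is likely among called genes and was not counted over all genes. After median-ratio scaling 7 were called higher and 3 lower (3.57% and 9.62% of all genes). The 7 were Zfp212, Zfp217, Zfp238, Zfp318, Zfp346, Zfp62 and Zfp91, and the 3 were Zfp185, Zfp266 and Zfp87. All 10 were also called on the spike-in scale. These calls depended on single libraries, since between 3 and 43 genes were called higher when 1 library was left out: 3 without KO-labelled pachytene replicate 1, 4 without KO-labelled pachytene replicate 2, 13 without WT pachytene replicate 1 and 4 without WT pachytene replicate 2. Lower calls numbered 2 without KO-labelled pachytene replicate 1 or without WT pachytene replicate 3, and 1 without KO-labelled pachytene replicate 2 or without WT pachytene replicate 1.

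**Figure D3:**
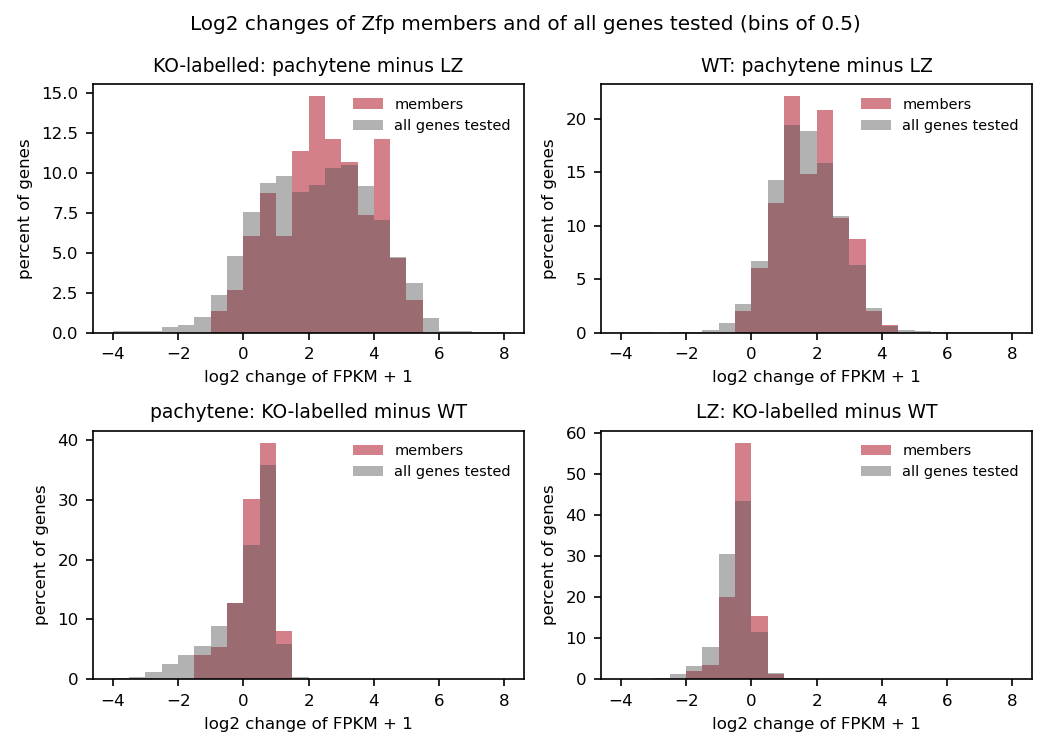
Distribution of log2 changes of the 149 genes and of all 15400 genes tested in 4 comparisons, as the percent of genes per bin. The Zfp genes and all genes overlap widely in each panel, with medians of 2.49 and 2.29 in KO-labelled and of 1.77 and 1.64 in WT cells between the stages, of 0.47 and 0.37 at pachytene and of -0.32 and -0.43 at LZ.

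Zfp238, now Zbtb18, a repressor known from neuronal differentiation, was called higher under every alternative tried except quantile normalisation (adjusted p = 0.0841). It had 218, 219 and 212 FPKM in KO-labelled pachytene libraries and 129.7, 70.3 and 113 FPKM in WT pachytene libraries (log2 change 1.09, SE 0.26, adjusted p = 0.0128 by limma). Its KO-labelled values lay close together and all above the WT values. Zfp212 had 107, 77.6 and 87.0 FPKM in KO-labelled and 49.6, 29.7 and 42.7 FPKM in WT libraries (1.15, SE 0.26, adjusted p = 0.011). Zfp27 had 22.6, 15.1 and 9.57 FPKM in KO-labelled and 6.98, 3.01 and 7.04 FPKM in WT libraries (1.32, SE 0.34, adjusted p = 0.0158), the largest change in this direction. Zfp36 had 32.0, 36.0 and 29.6 FPKM in KO-labelled and 9.69, 15.4 and 15.1 FPKM in WT libraries (1.24, SE 0.37, adjusted p = 0.0248). Neither Zfp27 (adjusted p = 0.0537) nor Zfp36 (adjusted p = 0.0975) was called after median-ratio scaling. Zfp97 had 5.57 ± 1.41 FPKM in KO-labelled and 2.17 ± 0.852 FPKM in WT cells (SD, n = 3 each), but shares 81.3% of its words with other genes, mainly Zfp960. Zfp426 had the smallest change of the named genes (0.72, SE 0.26, adjusted p = 0.0444).

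Several genes named above for the stage comparison were also compared between the genotypes at pachytene. Zfp110 (0.91, SE 0.28), Zfp35 (0.99, SE 0.31), Zfp318 (0.95, SE 0.24), Zfp54 (0.83, SE 0.27), Zfp167 (0.95, SE 0.29) and Zfp42 (0.80, SE 0.21) rose, with adjusted p of 0.0165 to 0.0303. Zfp389 had 0.66 (SE 0.26, adjusted p = 0.0589) and Zfp207 had 0.34 (SE 0.22, adjusted p = 0.201), which were not called. After median-ratio scaling Zfp318 (0.60, adjusted p = 0.0478) was called and the other 5 of the risen genes were not. Of the role lists, 4 of 6 genes described in testis, 1 of 3 pluripotency genes and 0 of 2 imprint genes were called higher. Over all genes 24.6% were. After median-ratio scaling the counts were 1 of 6, 0 of 3 and 0 of 2, and 3.57% of all genes. Of the 13 pachytene markers 9 were called higher under the KO label at pachytene, with sums of 63259.6 to 101267 in KO-labelled and 35615 to 46462 in WT libraries, and their part in these rises was not tested.

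Zfp87, Zfp474, Zfp72, Zfp266, Zfp185 and Zfp161 fell at pachytene under the KO label. Zfp87 had 2.54, 1.33 and 0.933 FPKM in KO-labelled and 7.71, 3.47 and 7.61 FPKM in WT pachytene libraries (log2 change -1.46, SE 0.33, adjusted p = 0.0102). Zfp266 had 1.37, 1.74 and 4.0 FPKM in KO-labelled and 5.99, 4.55 and 7.44 FPKM in WT pachytene libraries (-1.11, SE 0.33, adjusted p = 0.024). Both groups of both genes were low but did not overlap. Relative to WT LZ replicate 1, 1 fragment has a value of 4.97 to 5.92 in KO-labelled and 2.72 to 3.42 in WT pachytene libraries. Low pachytene values thus rest on fewer fragments than equal values of the same gene at LZ, most so in KO-labelled libraries. Zfp474 was the most abundant of the 6, with 13.3, 8.71 and 17.9 FPKM in KO-labelled and 35.4, 33.1 and 34.7 FPKM in WT pachytene libraries (-1.36, SE 0.38, adjusted p = 0.0207). Zfp161, now Zbtb14, had 0.583, 0.828 and 1.39 FPKM in KO-labelled and 2.78, 1.67 and 4.0 FPKM in WT libraries (-0.96, SE 0.31, adjusted p = 0.0316). Zfp72 was called with overlapping groups, at 7.21, 1.17 and 2.3 FPKM in KO-labelled and 5.87, 7.72 and 13.6 FPKM in WT libraries. Of the 10 round spermatid markers 8 were also called lower under the KO label at pachytene, and their sums of 3135 to 10289.6 in KO-labelled and 38276 to 45982 in WT libraries did not overlap. Spermatogonia markers were called lower in 6 of 8, and in 5 after median-ratio scaling, with overlapping sums of 378 to 568 in KO-labelled and 561 to 672 in WT libraries. Of 6 measured peritubular and endothelial markers 3 were called lower and 1 higher, with sums of 177 to 220.1 in KO-labelled and 542 to 702 in WT libraries. Over all genes tested 14.3% were called lower under the KO label at pachytene. The part of these cell types in these falls was not tested.

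**Figure D4:**
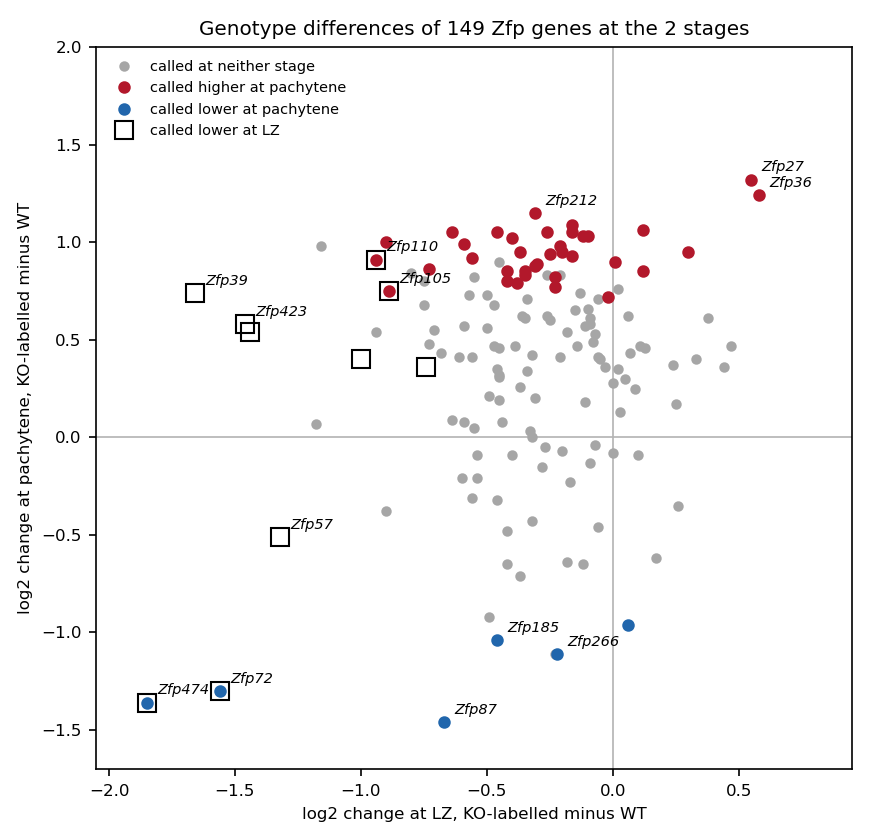
Each point is 1 of the 149 genes, with its KO-labelled minus WT log2 change at LZ across and at pachytene upwards. Red and blue points were called higher or lower at pachytene and open squares were called lower at LZ. Zfp474 and Zfp72 are in the lower left, with changes of -1.36 and -1.30 at pachytene and -1.85 and -1.56 at LZ, while Zfp39 has 0.74 at pachytene and -1.66 at LZ.

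At LZ 10 of the 149 Zfp genes (6.71%) were called lower in KO-labelled than in WT cells and 0 were called higher. Over all genes tested 12.9% were called lower and 0.136% higher. The median log2 change was -0.32 for the Zfp genes and -0.43 for all genes, and 24 Zfp genes had an unadjusted p under 0.05 by limma. The 10 were Zfp105, Zfp110, Zfp128, Zfp39, Zfp423, Zfp451, Zfp474, Zfp57, Zfp72 and Zfp90, with changes of -1.85 to -0.74. The groups overlapped in none of these genes, but separation is likely among called genes and was not counted over all genes. After median-ratio scaling 0 were called in either direction by limma (0.688% lower and 0.39% higher among all genes), and 28 had an unadjusted p under 0.05. The count was also 0 without WT LZ replicate 1, WT LZ replicate 2, KO-labelled LZ replicate 2 or KO-labelled LZ replicate 3, and 0 when the 6 LZ libraries were fitted alone. Libraries of the KO-labelled LZ group were also less alike over the 149 genes, with correlations of log2 values of 0.91 to 0.921, against 0.935 to 0.948 within WT LZ and 0.97 to 0.986 within the pachytene groups. This was not particular to the Zfp genes. Over all genes the correlations were 0.923 to 0.952 within KO-labelled LZ and 0.969 to 0.973 within WT LZ. They were 0.967 to 0.975 within KO-labelled pachytene and 0.968 to 0.975 within WT pachytene.

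Zfp474 had the largest fall, with 6.5, 1.74 and 1.31 FPKM in KO-labelled LZ libraries and 12.6, 11.4 and 12.3 FPKM in WT LZ libraries (log2 change -1.85, SE 0.38, adjusted p = 0.0178 by limma). Zfp39, one of the genes described in testis, had 10.4, 4.34 and 7.75 FPKM in KO-labelled and 27.6, 28.3 and 19.2 FPKM in WT LZ libraries (-1.66, SE 0.38, adjusted p = 0.021). Zfp423, which directs preadipocyte and neuronal differentiation, had 1.7, 0.781 and 0.382 FPKM in KO-labelled and 5.04, 5.15 and 2.72 FPKM in WT LZ libraries (-1.46, SE 0.34, adjusted p = 0.0221). In each of these the WT libraries were all higher, and WT LZ replicate 3 was the lowest WT value of Zfp39 and Zfp423.

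The imprint regulator Zfp57 had 1.95, 0.957 and 2.98 FPKM in KO-labelled LZ and 4.52, 5.41 and 9.02 FPKM in WT LZ libraries (-1.32, SE 0.34, adjusted p = 0.0285). At pachytene it had 17.2, 16.4 and 10.2 FPKM in KO-labelled and 26.0, 16.1 and 21.4 FPKM in WT libraries, a change of -0.51 that was not called (adjusted p = 0.22). Zfp445, its partner in imprint maintenance, was called at neither stage, with 0.61 (adjusted p = 0.101) at pachytene and -0.09 (adjusted p = 0.852) at LZ. Zfp72 had 0.119, 0 and 0.234 FPKM in KO-labelled LZ and 1.65, 1.5 and 4.4 FPKM in WT LZ libraries, the lowest level among the 10. Zfp451 (-1.0, SE 0.28, adjusted p = 0.0354), Zfp110 (-0.94, SE 0.28, adjusted p = 0.0464) and Zfp105 (-0.89, SE 0.27, adjusted p = 0.0466) fell by less and had WT LZ means of 20.4 to 31.2 FPKM. The round spermatid markers moved in the same direction at LZ, where 7 of 10 were called lower under the KO label with sums of 819 to 5575 in KO-labelled and 14803 to 31958 in WT libraries. Of the pachytene markers 6 of 13 were called lower at LZ, where 12.9% of all genes tested were. Their part in these falls was not tested.

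**Figure D5:**
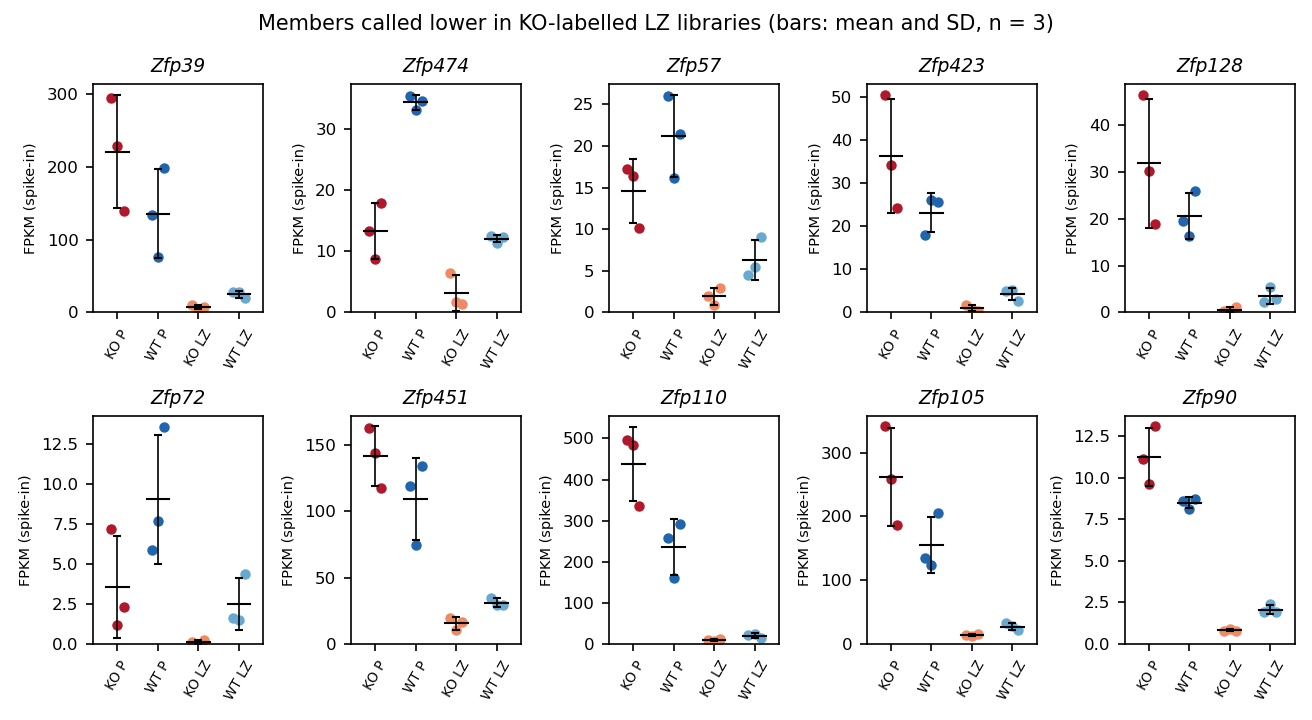
Spike-in-scaled FPKM of the 10 genes called lower in KO-labelled LZ libraries, in all 4 groups (KO is the KO-labelled genotype, P is pachytene). Points are libraries, and bars give mean and SD of 3. The LZ groups do not overlap in any of the 10, which is likely in genes chosen by their calls at LZ. At pachytene the KO-labelled values of Zfp474 (8.71 to 17.9) lie below those of WT (33.1 to 35.4), while those of Zfp110 (335 to 497) lie above (160.0 to 291).

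The genotype difference itself was then compared between the stages by the interaction term, the KO-labelled minus WT change at pachytene minus that at LZ. It was called positive in 44 of the 149 Zfp genes (29.5%) and called negative in 0, against 34.9% and 3.49% of all genes tested. The median was 0.74 for the Zfp genes and 0.72 for all genes. Zfp259, Zfp110 and Zfp94 had the smallest p. Zfp259 is now Zpr1, a zinc-binding protein of the survival motor neuron pathway. It had 444, 392 and 282 FPKM in KO-labelled pachytene, 167, 188 and 263 FPKM in WT pachytene, 20.7, 18.7 and 19.2 FPKM in KO-labelled LZ and 37.6, 32.3 and 29.7 FPKM in WT LZ libraries. The KO-labelled libraries were all above WT at pachytene and all below WT at LZ, and the interaction was 1.59 (SE 0.32, adjusted p = 0.00565 by limma). Zfp94 showed the same order, with 41.5, 37.7 and 31.3 FPKM in KO-labelled and 12.7, 19.3 and 23.1 FPKM in WT pachytene libraries, and with 0.835, 0.622 and 0.716 FPKM in KO-labelled and 3.12, 2.53 and 1.29 FPKM in WT LZ libraries (1.90, SE 0.41, adjusted p = 0.00667). It was the single Zfp gene called after median-ratio scaling (1.38, adjusted p = 0.0376), against 2.37% of all genes called higher and 4.36% lower. The 44 fell to 21 without KO-labelled pachytene replicate 1, 22 without KO-labelled pachytene replicate 2, 22 without WT pachytene replicate 2, 29 without WT pachytene replicate 1 and 23 without WT LZ replicate 2. Zfp161 (-1.01, SE 0.44, adjusted p = 0.0822), Zfp449 (-0.79, SE 0.40, adjusted p = 0.126) and Zfp266 (-0.89, SE 0.47, adjusted p = 0.143) had the smallest p on the negative side and were not called.

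Of the Zfp genes below 500, 133 were called higher at pachytene in WT. Under the KO label 36 were called higher and 6 lower at pachytene, and 10 were called lower at LZ. The matching shares of all genes tested were 80.9%, 24.6%, 14.3% and 12.9%. For the 149 measured genes named Zfp500 to Zfp999 the counts were 126, 31, 8 and 4. Of 34 Zbtb genes 14 were called higher and 2 lower under the KO label at pachytene, and 4 were called lower at LZ. Of 16 Zkscan and Zscan genes 7 were called higher and 0 lower at pachytene, and 2 were called lower at LZ. Median-ratio scaling left 7 higher and 3 lower calls at pachytene for Zfp genes below 500, and 1 and 4 for Zfp500 to Zfp999. It left 2 and 1 for Zbtb and 1 and 0 for Zkscan and Zscan genes, against 3.57% and 9.62% of all genes. No test of a difference between these families was made.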

How the data were processed

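The authors deposited 1 table of FPKM per gene for 12 libraries, scaled by ERCC spike-in RNA per its heading and the labels. Per the submitters' processing notes, TopHat2 2.1.1, Cufflinks 2.2.1 and the mouse build mm9 were used. The scaling formula, the annotation and the filters are not given in the sources used here. Per the labels' protocols, cDNA of polyadenylated RNA was amplified, which may add spread. Counts were not used here, so depth and counting error are unknown. The smallest steps between low values give 1 fragment a value of 2.72 to 5.92 in pachytene libraries and 0.599 to 1.0 in LZ libraries, relative to WT LZ replicate 1. The 4 columns without a name were not used. They equal means of named columns, and 1 of them averages KO-labelled LZ replicates 1 and 3 without replicate 2.

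Genes with at least 1 in 3 or more libraries were kept (15400). All 12 libraries entered limma 3.58.1 (R 4.3.3) as log2(FPKM + 1), with a mean for each group and a variance trend. Tests were two-sided with Benjamini-Hochberg adjustment over all these genes and a threshold of 0.05. The fit was tested on simulated data. Changes were planted only in KO-labelled LZ libraries and in more abundant genes, without a shift shared by most genes. That test therefore does not check calls of low genes, the stage comparisons or the scaling. Sums per library were compared by exact permutation. Stage and genotype comparisons share libraries, so their values stand side by side and are not independent.

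Members and lists were chosen with earlier results of these data known. The naming rule took, per comparison, the 5 highest and 5 lowest log2 changes among called members whose groups did not overlap and whose higher group averaged 5 or more, so that all 10 can have 1 sign. For the interaction it took the 3 smallest p in each direction. It added the 3 most abundant members of each role list, the 5 most abundant of all and the called partners. Other genes named were chosen after their values were seen. The alternatives were other pseudocounts, level filters and scalings, a fit of the compared groups alone, a replicate block and each library left out.

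All 149 genes were matched to GENCODE M21, 8 of them through a RefSeq synonym. Fingers and KRAB motifs were counted in translated open reading frames of its transcripts. Promoters are RefSeq's on GRCm38.p6, a later build than mm9. The promoter elements, the split by chromosome, the 200 kb distance, the 50-base words and the wider KRAB motif were chosen after the data were seen.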

Additional observations from a re-analysis of the deposited data

Results flagged for a closer look

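The KO-labelled minus WT change differed between the stages in 44 of the 149 genes by the interaction test of limma (adjusted p under 0.05 over all 15400 genes). The values that follow are the change at pachytene minus the change at LZ on the log2 scale. They were chosen by this test, and all 44 are positive. The difference was 2.40 in Zfp39, 2.14 in Zfp296, 2.04 in Zfp423, 1.98 in Zfp128, 1.90 in Zfp94, 1.85 in Zfp110 and 1.69 in Zfp384. It was 1.64 in Zfp105, 1.64 in Zfp78, 1.59 in Zfp259, 1.58 in Zfp35, 1.55 in Zfp189, 1.52 in Zfp62 and 1.49 in Zfp286. Further values were 1.48 in Zfp319, 1.46 in Zfp212, 1.43 in Zfp51, 1.42 in Zfp41, 1.40 in Zfp451, 1.37 in Zfp382 and 1.32 in Zfp91. The next were 1.31 in Zfp180, 1.28 in Zfp59, 1.24 in Zfp238, 1.23 in Zfp248, 1.22 in Zfp11, 1.22 in Zfp42 and 1.21 in Zfp367. Then came 1.20 in Zfp61, 1.20 in Zfp260, 1.19 in Zfp397, 1.19 in Zfp217, 1.18 in Zfp438, 1.18 in Zfp54 and 1.17 in Zfp276. Lower values were 1.16 in Zfp93, 1.16 in Zfp329, 1.15 in Zfp318, 1.15 in Zfp142, 1.13 in Zfp346, 1.10 in Zfp90 and 1.09 in Zfp407. The lowest were 1.06 in Zfp263 and 1.05 in Zfp236. Among the 13 partners of KRAB zinc finger proteins 8 were called by the same test, with differences of 1.46 in Uhrf1, 1.22 in Trim28, 1.17 in Morc3, 1.13 in Atf7ip, 1.02 in Chd4, 0.92 in Cbx1, 0.91 in Cbx5 and 0.82 in Sumo2. Over all genes tested 34.9% were called with a positive difference and 3.49% with a negative one. After median-ratio scaling only Zfp94 among the 149 genes and 0 of the 13 partners were called by limma.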

How the results depend on the processing

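The stage counts depended on the scaling. With median-ratio scaling 51 Zfp genes were called higher and 31 lower at pachytene in KO-labelled cells, and 36 and 21 in WT. With quantile normalisation the counts were 70 and 22 in KO-labelled cells and 43 and 15 in WT. Both scalings remove a change shared by most genes. The 10 lower calls at LZ became 2 with a pseudocount of 5, 3 with no filter, 0 with median-ratio scaling, 0 with quantile normalisation and 0 with the compared groups alone. The 36 higher calls at pachytene became 62 with a pseudocount of 5, 7 with median-ratio scaling and 6 with quantile normalisation. The 6 lower calls there became 2 with a filter of 5, 3 with median-ratio scaling and 0 with quantile normalisation. The 44 interaction calls became 1 with median-ratio scaling and 0 with quantile normalisation. With median-ratio scaling the ratio of sums became 1.05 at LZ, and the stage ratios became 1.65 in KO-labelled cells and 1.37 in WT. Apart from the scalings, the cause was not tested.

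With 1 library left out, 127 to 132 genes were called higher between the stages under the KO label, and 0 to 1 lower. In WT the higher calls numbered 121 to 134. Lower calls at LZ ranged from 0 to 12. Higher calls at pachytene ranged from 3 to 43 and lower calls from 1 to 7. Positive interaction calls ranged from 21 to 51 and negative ones from 0 to 1.

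Named genes turned in direction only under the 2 scalings. In KO-labelled cells the stage changes under median-ratio scaling and quantile normalisation were -1.36 and -1.41 for Zfp12, -0.13 and -0.64 for Zfp207, -0.22 and -0.17 for Zfp281, -0.80 and -0.56 for Zfp36, -0.81 and -0.83 for Zfp410, -1.35 and -1.35 for Zfp414, -1.63 and -1.07 for Zfp467, -1.29 and -0.92 for Zfp488, -1.63 and -1.10 for Zfp68, and -1.65 and -1.10 for Zfp9. In WT they were -0.90 and -0.72 for Zfp185, -0.88 and -0.70 for Zfp266, -0.19 and -0.12 for Zfp281, -0.68 and -0.50 for Zfp296, -0.47 and -0.29 for Zfp36, -0.67 and -0.66 for Zfp410, -0.28 and -0.35 for Zfp451, -0.79 and -0.62 for Zfp467, -0.26 and -0.09 for Zfp57, -0.78 and -0.61 for Zfp68, and -0.50 and -0.30 for Zfp84. Zfp207 in WT had -0.08 with quantile normalisation.

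Libraries of the same replicate number did not deviate together in every pair (correlations of -0.17 to 0.26), so the numbers were not taken as pairs. With a replicate block the higher calls were 132 in each stage comparison and 32 at pachytene, the lower calls were 8 at LZ and 7 at pachytene, and the interaction calls were 39. Depth is unknown, so the precision of low values could not be stated.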
